A study of Mus musculus with 6 samples.

Results

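The genes described here are 37 genes of the lysosome: 9 lysosomal membrane proteins, 6 lipid-handling hydrolases and their helpers, 10 glycosidases, tripeptidyl peptidase 1 and progranulin, 7 subunits of the proton pump, and the 3 transcription factors Tfeb, Tfe3 and Mitf. They were chosen by symbol from a table of 26519 mouse genes, without the cathepsins, and all 37 were found. Every one of them passed the filter on low counts, as did 12580 genes in all. RNA was sequenced from dendritic cells isolated from MC38 tumours, a mouse colon adenocarcinoma line, at day 10 after inoculation. There were 3 libraries from wild-type hosts and 3 from MAVS knockout hosts. MAVS is the mitochondrial adaptor of the RNA sensors RIG-I and MDA5. The host carried the knockout, and the labels name no cell-specific deletion and no difference in the tumour line between the groups. The sources used here do not give the strain, sex and age of the mice, the way the cells were sorted, or whether each library came from 1 animal or from a pool. The p-values therefore measure the spread between these samples, which may be technical.

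Lysosomes are acidic vesicles in which hydrolases break down proteins, lipids and sugars taken up by the cell or delivered by autophagy. The V-ATPase, a proton pump built from a membrane sector (V0) and a cytosolic sector (V1), acidifies the lumen, and heavily glycosylated membrane proteins such as LAMP1 and LAMP2 line the membrane. The transcription factors TFEB, TFE3 and MITF, which belong to the MiT/TFE family, bind an E-box, CACGTG, in the promoters of many lysosomal genes. In dendritic cells lysosomal proteolysis and acidity shape which antigens are kept for presentation.

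Library totals were 14466640 to 20851733 counts. Levels are given in CPM, the usual scale of counts per library total, here with TMM-scaled totals, and fold changes are log2 of knockout over wild-type. Mavs was measured at 33.9, 39.7 and 39.7 CPM in the wild-type libraries and at 8.99, 12.8 and 9.45 CPM in the knockout libraries, with a log2 fold change of -1.86 (SE 0.18, adjusted p = 0.0017 by edgeR). Of the listed dendritic cell markers, Cd74 was at 14770 CPM or more in each library. Zbtb46, a transcription factor of conventional dendritic cells, was far lower. It was at 15.3 to 27.5 CPM in wild-type against 6.96 to 10.8 CPM in knockout libraries. The libraries also carried abundant macrophage transcripts, with Lyz2 at 19010 CPM or more in each library. These levels do not give the share of each cell type. The neutrophil gene Ly6g stood at 0.0493 CPM or less. Fewer cells of a type and less RNA per cell cannot be told apart in such bulk libraries.

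Promoter windows of RefSeq (GRCm38.p6), from 250 bases before to 50 after each start, were found for 31 of the 37 genes. The E-box CACGTG reads the same on both strands, as do its extensions TCACGTGA and GTCACGTGAC, and each longer match contains the core. The core was present for 7 genes (22.6% of 31), Lamp1, Mcoln1, Gla, Glb1, Naglu, Gaa and Atp6v1a. Among the 9432 tested genes with a window it was present for 11.9%, and among all 27025 genes of the promoter table for 8.09%. The form TCACGTGA was present for 3 of the 31 genes (9.68%), Mcoln1, Gla and Atp6v1a, beside 2.28% of the tested genes and 1.12% of all. The form GTCACGTGAC was present for 0 of the 31, beside 0.859% and 0.37%. The promoters of Lamp1, Mcoln1, Gla and Atp6v1a are shown because each holds either several cores or the longer form. Each is read 5′ to 3′ on the strand of its gene, ends before the RefSeq start, and has the CACGTG cores in capitals. That start can differ from the gene positions of GENCODE M21, which are used for the other positions here. By those, Mcoln1 starts at 3500457, inside its printed stretch. Atp6v1a, on the minus strand, starts at 44139705, upstream of its whole printed stretch.

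Lamp1 (chr8:13159080-13159160, plus strand, 4 cores): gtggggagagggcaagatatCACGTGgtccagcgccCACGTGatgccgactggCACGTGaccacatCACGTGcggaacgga
Mcoln1 (chr8:3500428-3500499, plus strand, 2 cores): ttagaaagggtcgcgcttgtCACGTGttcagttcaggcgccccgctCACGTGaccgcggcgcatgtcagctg
Gla (chrX:134601174-134601252, minus strand, 2 cores): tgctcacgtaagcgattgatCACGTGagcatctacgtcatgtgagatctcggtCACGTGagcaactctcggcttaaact
Atp6v1a (chr16:44139365-44139410, minus strand, 1 core): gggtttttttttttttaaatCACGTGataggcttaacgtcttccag

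In the Lamp1 promoter the 4 cores began 15 to 61 bases before the start, and in that of Gla the 2 cores began 194 and 227 bases before it. The log2 fold changes of the 7 genes with a core were 0.53 for Lamp1, 0.52 for Gla, 0.44 for Naglu, 0.32 for Atp6v1a, 0.29 for Glb1, 0.03 for Gaa and -0.01 for Mcoln1. A match describes the letters of the window and says nothing of binding in these cells.

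Lamp2, whose product lines the lysosomal membrane and takes part in chaperone-mediated autophagy, rose in the dendritic cells of MAVS knockout hosts, to 1.42-fold the wild-type level. It was the only one of the 37 genes past the threshold, an adjusted p of 0.05 over all 12580 tested genes by edgeR's quasi-likelihood test. That is 2.70% of the genes, beside 2.81% of all tested genes. In the higher direction 1.76% of all tested genes passed and in the lower direction 1.05%. No gene of the 37 was called lower, where 2 had an unadjusted p under 0.05. The DESeq2 Wald test called 3 higher and 1 lower, and limma-voom 1 and 0.

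Although a single gene passed, 29 of the 37 fold changes were positive and 8 negative. The median log2 fold change of the 37 was 0.16, beside -0.0022 for all tested genes. When libraries were scaled by their totals alone the median of all tested genes was -0.17 and that of the 37 genes was -0.01, with 11 of the positive fold changes turned negative. With that scaling 102 genes were called higher and 341 lower over the whole table, in place of 222 and 132. As a share of all counts, the 37 genes together took 1.82% to 2.04% in wild-type against 1.78% to 1.99% in knockout libraries. Shares of counts, here and below, use library totals with no TMM scaling. With TMM-scaled totals the 37 genes summed to 17240 to 19580 CPM in wild-type against 18930 to 21130 CPM in knockout libraries, which overlapped as well.

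At an unadjusted p under 0.05 stood 14 genes with a higher mean in knockout (37.8%) and 2 with a lower mean (5.41%), beside 8.45% and 7.51% of all tested genes. The 3 knockout values lay above the 3 wild-type values for 12 genes (32.4%) and below them for 3 genes (8.11%), while 22 genes overlapped. Among all tested genes the groups did not overlap for 21.8%, with knockout higher for 11.2% and lower for 10.6%. The 12 genes were Lamp2, Cd68, Npc2, Asah1, Gla, Glb1, Naglu, Tpp1, Atp6v0d2, Atp6v1a, Atp6v1c1 and Atp6ap1, and the 3 were Gusb, Man2b1 and Manba.

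**Figure D1:**
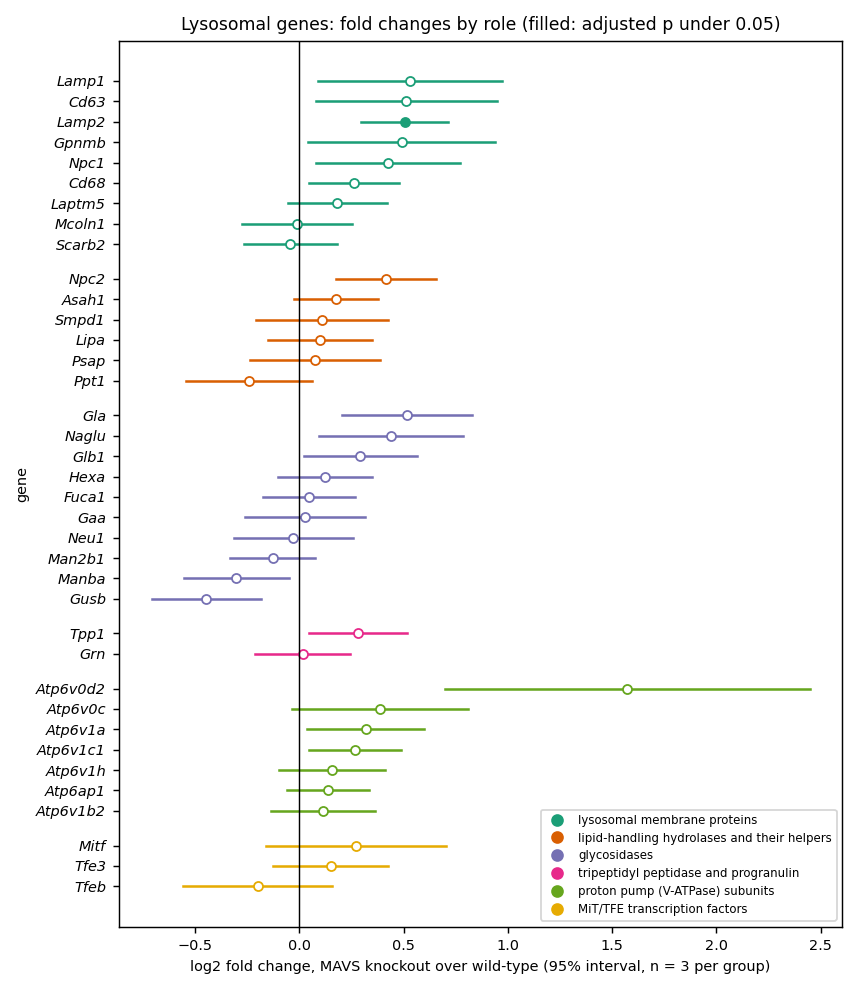
Log2 fold change of each of the 37 genes, MAVS knockout over wild-type, with its 95% interval (3 libraries per group), grouped and coloured by role; a filled point marks an adjusted p under 0.05. Lamp2 is the one filled point, and the points of the membrane proteins and the proton pump lie mostly to the right of 0.

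Among the lysosomal membrane proteins, Lamp2 lies on chromosome X from 38401357 to 38456454 (GRCm38, the mm10 build). Its level was 589, 615 and 662 CPM in the wild-type libraries and 841, 923 and 887 CPM in the knockout libraries. The lowest knockout value lay above the highest wild-type value. The log2 fold change was 0.51 (adjusted p = 0.0258 by edgeR, SE 0.09), with a 95% interval on the fold of 1.23 to 1.64. With 1 library left out the adjusted p was 0.0538 without wild-type replicate 1, 0.0676 without wild-type replicate 2, 0.0619 without knockout replicate 1, 0.108 without knockout replicate 2 and 0.12 without knockout replicate 3. It stayed under the threshold only without wild-type replicate 3 (0.0322), and over these fits the log2 fold change was 0.46 to 0.55. With library totals alone it was 0.34 and the adjusted p 0.0694.

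Lamp1, the partner of Lamp2 in the lysosomal membrane, was measured at 78.0, 62.3 and 44.5 CPM in wild-type and 101, 93.8 and 72.3 CPM in knockout libraries. Knockout replicate 3 lay below wild-type replicate 1, so the groups overlapped, and the log2 fold change of 0.53 (SE 0.20) had an adjusted p of 0.216 by edgeR. Cd63, a tetraspanin of late endosomes and exosomes, stood at 355, 197 and 265 CPM in wild-type and 463, 344 and 360.0 CPM in knockout libraries. Here too 1 wild-type library, replicate 1, reached into the knockout range, with a log2 fold change of 0.51 (SE 0.20, adjusted p = 0.222 by edgeR).

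Cd68, or macrosialin, a glycoprotein of the LAMP family that is abundant in macrophages, was at 1147, 999 and 1115 CPM in wild-type and 1407, 1264 and 1245 CPM in knockout libraries. The groups did not overlap, and the log2 fold change was 0.26 (adjusted p = 0.211 by edgeR, SE 0.10). Gpnmb, a glycoprotein of lysosomes in phagocytes laden with lipid, was at 45.8, 35.9 and 42.2 CPM in wild-type and 75.0, 58.4 and 40.7 CPM in knockout libraries. Knockout replicate 3 lay inside the wild-type range, and its log2 fold change was 0.49 (adjusted p = 0.264 by edgeR, SE 0.20). Npc1, the membrane protein that exports cholesterol from lysosomes, was at 35.6 to 49.3 CPM in wild-type against 49.3 to 61.0 CPM in knockout libraries, with a log2 fold change of 0.42 (SE 0.16, adjusted p = 0.21 by edgeR).

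The other 3 membrane proteins overlapped between the groups. Laptm5, which sorts receptors of blood cells to the lysosome, was at 1965 to 2359 CPM in wild-type against 2187 to 2664 CPM in knockout libraries, with a log2 fold change of 0.18 (SE 0.11). The calcium channel Mcoln1 was at 93.5 to 113 CPM and 96.2 to 114 CPM, with a log2 fold change of -0.01 (95% interval -0.28 to 0.25). Scarb2, the receptor that carries glucocerebrosidase to the lysosome, was at 129 to 131 CPM and 119 to 131 CPM, with a log2 fold change of -0.04 (95% interval -0.27 to 0.18). Over the 9 membrane proteins the median log2 fold change was 0.42, with 7 positive. It was 0.255 with library totals alone and 0.263 to 0.46 with 1 library left out. At an unadjusted p under 0.05 stood 6 of the 9, all higher, beside 16.0% of all tested genes, with 8.45% higher.

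**Figure D2:**
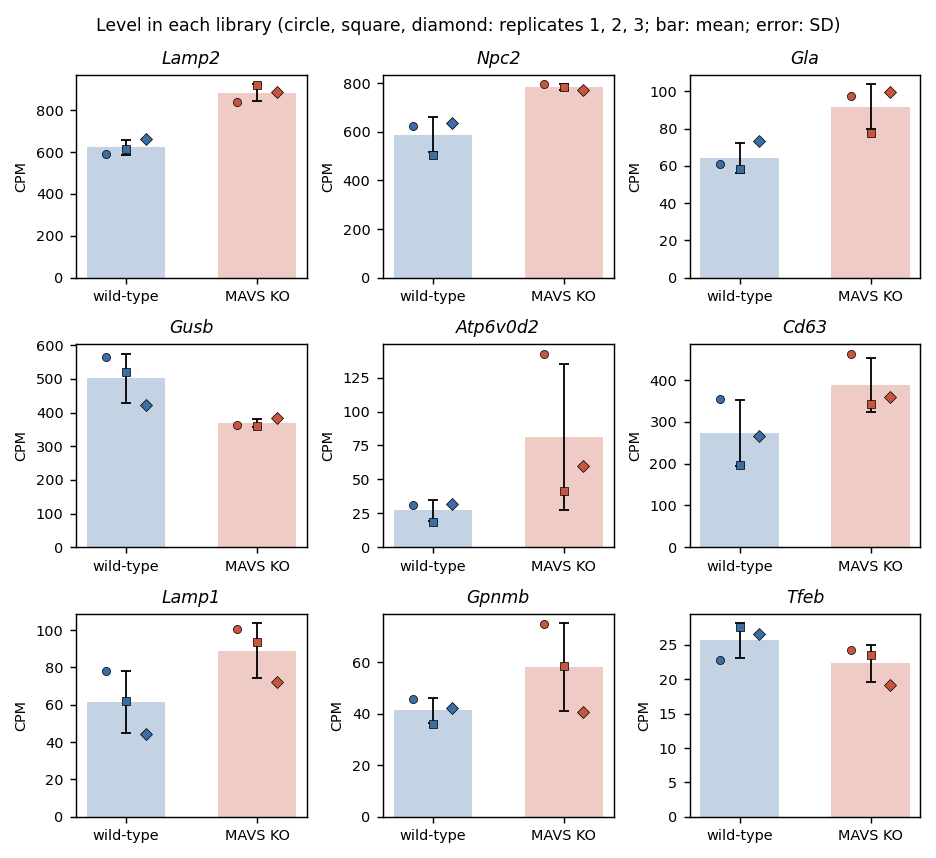
CPM of 9 of the genes in each library; bars are group means, error bars are SD (n = 3), and circle, square and diamond are replicates 1, 2 and 3. The Lamp2, Npc2, Gla and Atp6v0d2 points of knockout libraries all lie above those of wild-type libraries, the Gusb points below, and knockout replicate 1 stands apart for Atp6v0d2 at 143 CPM.

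Of the 6 lipid-handling genes, Npc2 had the lowest p. Npc2 is the soluble protein of the lumen that hands cholesterol to NPC1. Its level was 625, 506 and 635 CPM in wild-type and 796, 785 and 773 CPM in knockout libraries. The knockout libraries lay close together and above all wild-type libraries, and the log2 fold change of 0.41 (SE 0.11) had an adjusted p of 0.0755 by edgeR. The DESeq2 Wald test gave it an adjusted p of 0.0227. With library totals alone the median log2 fold change of the 6 genes was -0.07, in place of 0.10.

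Asah1, acid ceramidase, was at 683, 652 and 654 CPM in wild-type and 704, 783 and 761 CPM in knockout libraries. The groups did not overlap, with a log2 fold change of 0.18 (SE 0.09, adjusted p = 0.394 by edgeR). Psap, the precursor of the saposins that help hydrolases reach sphingolipids, was the gene with the highest CPM of the 37. It was measured at 5276, 5892 and 7452 CPM in wild-type and 7587, 5681 and 6341 CPM in knockout libraries, with a log2 fold change of 0.07 (SE 0.14). Its replicates differed more than its groups.

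Lipa, the lysosomal acid lipase, was at 162 to 174 CPM in wild-type against 158 to 196 CPM in knockout libraries, with a log2 fold change of 0.10 (SE 0.11). Smpd1, acid sphingomyelinase, was at 30.9 to 39.6 CPM and 35.0 to 40.0 CPM, with a log2 fold change of 0.11 (SE 0.14). Ppt1, which removes palmitate from proteins, was the one gene of this group with a lower mean in knockout, at 375 to 539 CPM against 348 to 418 CPM. Its log2 fold change was -0.24 (95% interval -0.55 to 0.06, adjusted p = 0.448 by edgeR).

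The 10 glycosidases, which remove sugars from glycolipids and glycoproteins, were split in direction, with 6 positive and 4 negative log2 fold changes and a median of 0.04. With library totals alone Hexa, Fuca1 and Gaa were negative as well and the median was -0.13. None was called by the main edgeR fit or limma-voom, and the DESeq2 Wald test called 1 in each direction. An unadjusted p under 0.05 was held by 5, of which 3 were higher and 2 lower, beside 16.0% of all tested genes. The values farthest from 0 were those of Gla and Gusb.

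Gla, alpha-galactosidase A, which breaks down globotriaosylceramide, was at 60.8, 58.3 and 73.5 CPM in wild-type and 97.7, 77.9 and 99.7 CPM in knockout libraries. Each knockout value was above each wild-type value, and the log2 fold change was 0.52 (adjusted p = 0.0896 by edgeR, SE 0.14). Gusb, beta-glucuronidase, was at 564, 519 and 422 CPM in wild-type and 363, 359 and 383 CPM in knockout libraries. It had the opposite order, with each knockout value below each wild-type value and a log2 fold change of -0.45 (SE 0.12, adjusted p = 0.0818 by edgeR). The edgeR adjusted p for Gusb was 0.0337 without wild-type replicate 3 and 0.0264 with library totals alone.

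Naglu, which degrades heparan sulfate, was at 73.3, 111 and 106 CPM in wild-type and 128, 124 and 142 CPM in knockout libraries, with a log2 fold change of 0.44 (SE 0.16, adjusted p = 0.192 by edgeR). Without wild-type replicate 1, its lowest library, the log2 fold change was 0.27. Glb1, beta-galactosidase, was at 59.1 to 64.5 CPM and 69.8 to 85.3 CPM, with a log2 fold change of 0.29 (SE 0.12, adjusted p = 0.273 by edgeR). Neither Naglu nor Glb1 overlapped between the groups.

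Both mannosidases lay lower in knockout libraries without overlap. Manba, beta-mannosidase, was at 72.7 to 75.5 CPM in wild-type against 56.7 to 66.2 CPM in knockout libraries, with a log2 fold change of -0.30 (SE 0.11, adjusted p = 0.22 by edgeR). Man2b1, the lysosomal alpha-mannosidase, was at 508 to 546 CPM and 466 to 497 CPM, with a log2 fold change of -0.13 (SE 0.09, adjusted p = 0.569 by edgeR).

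For the remaining 4 glycosidases the groups overlapped. Hexa, the alpha subunit of beta-hexosaminidase, had a log2 fold change of 0.12 (SE 0.10). Those of Fuca1, the lysosomal fucosidase, Gaa, acid alpha-glucosidase, and Neu1, the lysosomal sialidase, were 0.05 (SE 0.10), 0.03 (SE 0.13) and -0.03 (SE 0.13).

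Tpp1, tripeptidyl peptidase 1, a serine protease that trims tripeptides from the ends of proteins, was at 200, 217 and 207 CPM in wild-type and 278, 246 and 233 CPM in knockout libraries. The groups did not overlap, and the log2 fold change was 0.28 (adjusted p = 0.219 by edgeR, SE 0.11). Grn encodes progranulin, a secreted and lysosomal protein that is cleaved to granulins. Its level was 1066 to 1203 CPM in wild-type against 1042 to 1262 CPM in knockout libraries, with a log2 fold change of 0.02 (95% interval -0.21 to 0.24).

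**Figure D3:**
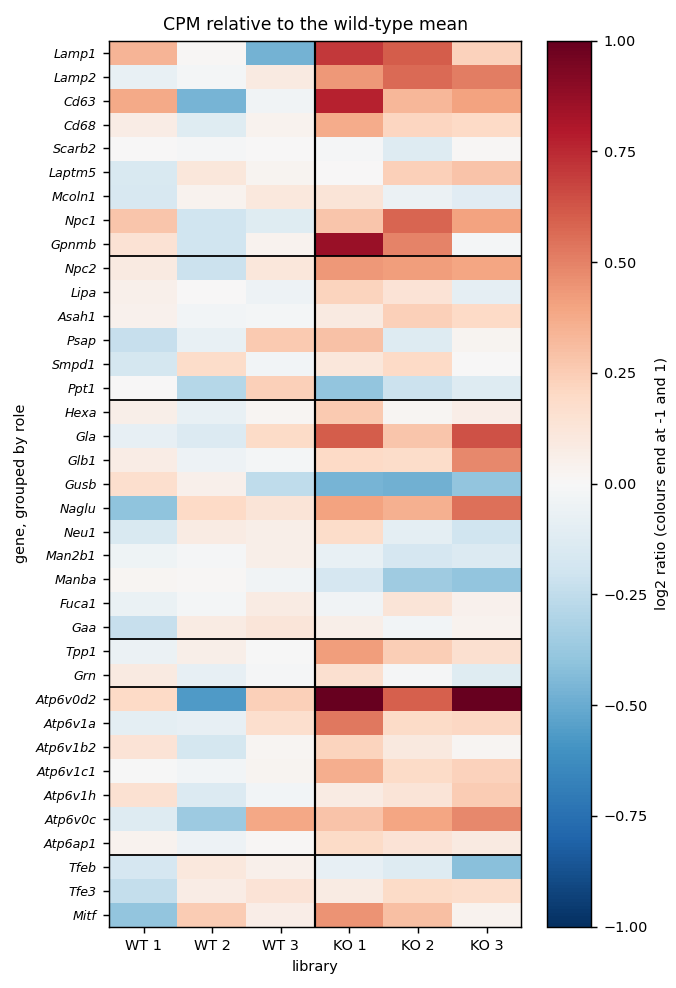
Log2 ratio of the CPM of each of the 37 genes in each library (columns) to its wild-type mean, with lines between the roles and between the genotypes; colours end at -1 and 1. Red fills most of the knockout columns for membrane proteins and proton pump, Gusb is blue in all 3, and knockout replicate 1 has the highest knockout value for 22 of the 37 genes.

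The 7 proton pump genes all had positive log2 fold changes, from 0.11 to 1.57 with a median of 0.27, and with library totals alone those of Atp6v1b2, Atp6v1h and Atp6ap1 were negative. None was called by the main edgeR fit, DESeq2 or limma-voom. An unadjusted p under 0.05 was held by 3, all higher, beside 16.0% of all tested genes, with 8.45% higher. Atp6v0d2, an isoform of the d subunit of V0 that is prominent in osteoclasts and macrophages, had the highest log2 fold change of the 37 genes. It was measured at 31.4, 18.5 and 32.2 CPM in wild-type and 143, 41.4 and 59.6 CPM in knockout libraries. The knockout values lay above the wild-type values but spread widely, and knockout replicate 1 was far above the other two. The log2 fold change was 1.57 (SE 0.39, 95% interval 0.70 to 2.45, adjusted p = 0.0673 by edgeR). It was 0.88 without knockout replicate 1, with an adjusted p of 0.144 in that edgeR fit. Of the alternative edgeR fits, those with a replicate block (adjusted p = 0.0103) and with no filter on low counts called Atp6v0d2. None with 1 library left out did.

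The other isoform, Atp6v0d1, chosen here after its values were seen, was at 53.1, 93.8 and 87.3 CPM in wild-type and 89.7, 127 and 118 CPM in knockout libraries. Per kilobase of exon, Atp6v0d2 made up 28.0%, 11.5% and 19.6% of the sum of both isoforms in wild-type and 51.2%, 17.8% and 25.0% in knockout libraries. These shares overlapped between the groups.

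In the V1 sector, Atp6v1a, the catalytic subunit, was at 200, 201 and 239 CPM in wild-type and 308, 244 and 246 CPM in knockout libraries. The groups were separated by a narrow gap, with a log2 fold change of 0.32 (SE 0.13, adjusted p = 0.245 by edgeR). Atp6v1c1, a stalk subunit, was at 182 to 188 CPM and 211 to 238 CPM, with a log2 fold change of 0.27 (SE 0.10, adjusted p = 0.215 by edgeR). Atp6v1h, a regulatory subunit, and Atp6v1b2, the nucleotide-binding B subunit, overlapped between the groups, with log2 fold changes of 0.16 (SE 0.12) and 0.11 (SE 0.11).

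Atp6ap1, an accessory protein of pump assembly, was at 811, 762.1 and 795 CPM in wild-type and 899, 867 and 842 CPM in knockout libraries. Its groups did not overlap, with a log2 fold change of 0.14 (SE 0.09, adjusted p = 0.51 by edgeR). Atp6v0c, the subunit that forms the proton-carrying ring, was at 26.0, 22.1 and 37.04 CPM in wild-type and 34.7, 37.2 and 39.6 CPM in knockout libraries, with a log2 fold change of 0.39 (SE 0.19, adjusted p = 0.363 by edgeR). This value is uncertain, because the pseudogene Atp6v0c-ps2 is 99.8% identical to it over 465 bases and held 120 to 264 counts per library, beside 414 to 804 for Atp6v0c. With both summed, an alternative chosen after seeing the data, the log2 fold change was 0.56 (adjusted p = 0.0889 by edgeR, SE 0.15).

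Of 14 further pump genes that were tested, the main edgeR fit and limma-voom called 0 and the DESeq2 Wald test 1 in each direction. At an unadjusted p under 0.05 stood 3 higher and 1 lower, beside 16.0% of all tested genes. Their median log2 fold change was 0.14, and with library totals alone it was -0.03. Highest in CPM, with no account of length, were Atp6ap2, an accessory protein that also binds renin, with a log2 fold change of 0.16 (SE 0.09), and Atp6v0e, a small V0 subunit, with 0.14 (SE 0.10). With library totals alone both were negative. Over all 21 pump genes, 10 had knockout above wild-type without overlap and 1 below, beside 11.2% and 10.6% of all tested genes; with library totals alone Atp6v1b2, Atp6v1h, Atp6ap1, Atp6ap2 and Atp6v0e were negative among the genes named here.

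The gene below was Atp6v0a2, an isoform of the large V0 subunit found mainly in the Golgi. It was at 104, 105 and 127 CPM in wild-type and 88.6, 80.8 and 64.5 CPM in knockout libraries, with a log2 fold change of -0.52 (SE 0.14, adjusted p = 0.0933 by edgeR). Its relative Atp6v0a1 was at 93.3 to 123 CPM and 144 to 147 CPM, with a log2 fold change of 0.38 (SE 0.12, adjusted p = 0.158 by edgeR). Both were chosen after their values were seen, and the difference between them was not tested.

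**Figure D4:**
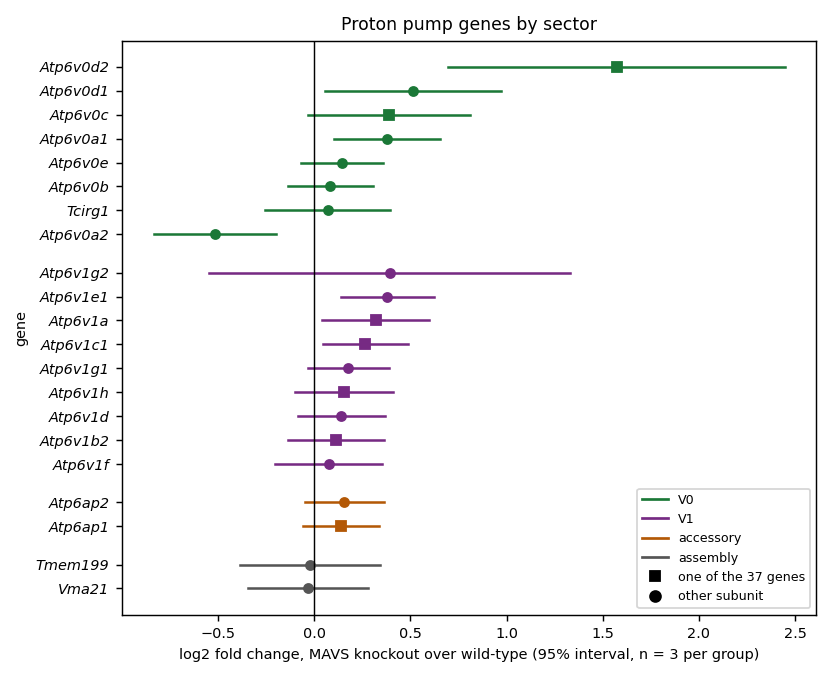
Log2 fold change with its 95% interval (3 libraries per group) of the 21 tested pump genes, coloured by sector, with squares for the 7 of the 37 genes and circles for the other 14. Atp6v0d2 lies farthest right at 1.57 and Atp6v0a2 farthest left at -0.52, and all 9 V1 genes lie to the right of 0 with this scaling.

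The 3 transcription factors differed little between the groups beside the spread of their replicates. Tfeb was at 22.8, 27.6 and 26.6 CPM in wild-type and 24.3, 23.5 and 19.2 CPM in knockout libraries, with a log2 fold change of -0.20 (95% interval -0.56 to 0.16). Tfe3 was at 78.9, 97.9 and 102 CPM and 98.3, 106 and 105 CPM, with a log2 fold change of 0.15 (95% interval -0.12 to 0.42). Mitf was at 17.7, 27.8 and 24.4 CPM and 31.7, 28.6 and 23.9 CPM, with a log2 fold change of 0.27 (95% interval -0.16 to 0.70). The groups overlapped for each of them, with edgeR adjusted p-values of 0.624, 0.635 and 0.57. None was called by edgeR, DESeq2 or limma-voom, and 0 had an unadjusted p under 0.05. Their activity depends largely on their place in the cell, which RNA levels do not show.

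Levels can be compared between genes only per length of their exons, taken here as the merged exons of all annotated transcripts. A gene with long additional exons is placed lower by this length than by that of a single transcript: the merged exons of Cd63 span 3682 bases and those of Npc1 11317, beside 1109 and 5224 bases in 1 transcript of each. The order below holds for the merged length and was not tested with another. On the scale of CPM per kilobase in wild-type libraries, Psap was highest at 2262, followed by Cd68 at 865, Laptm5 at 576, Grn at 326, Atp6ap1 at 261 and Hexa at 239. In knockout libraries the same 6 genes stood at 2382, 1038, 654, 329, 287 and 260.1 CPM per kilobase, in the same order. At the lower end in wild-type libraries were Npc1 at 3.60, Mitf at 3.76, Tfeb at 4.53 and Gpnmb at 6.34. Atp6v0d2 was at 10.1 CPM per kilobase in wild-type and 29.9 in knockout libraries. Lamp2 was at 65.1 and 92.5, which placed it at rank 15 of the 37 genes in wild-type and rank 11 in knockout libraries.

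**Figure D5:**
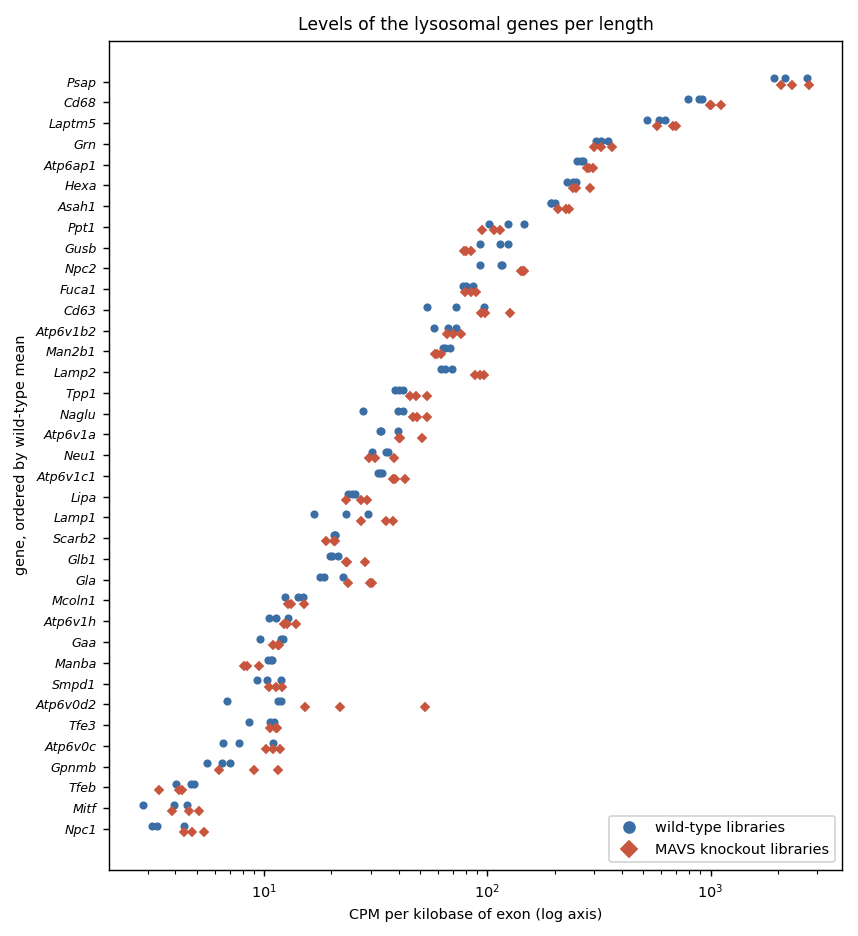
CPM per kilobase of exon of the 37 genes on a log axis, ordered by the wild-type mean, with circles for wild-type and diamonds for knockout libraries. Levels span from 3.60 for Npc1 to 2262 for Psap in the wild-type mean, and for most genes the distance between genotypes is small beside the distance between genes.

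Counts of 7 of the 37 genes may include reads of overlapping genes or lack reads of shared exons. The sources used here do not give the strand setting, or how reads that fit several genes were counted. Npc1 shares 511 exon bases with Rmc1 on the opposite strand, which held 9101 counts beside 5004 for Npc1. Glb1 shares 165 exon bases with Tmppe on the same strand, where the strand setting makes no difference. Lamp1, Ppt1, Hexa, Grn and Atp6v1h overlap genes on the opposite strand over 68 to 255 exon bases. Cd63 has a near-identical copy, Cd63-ps, with 47 counts in all libraries together.

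Other genes of the lysosome, from lists taken from general knowledge of the pathway, gave few calls by the same edgeR test. Of 36 other hydrolases and helpers, 2 passed the test (5.56%), beside 2.81% of all tested genes. Their median log2 fold change was 0.01. Scpep1, a serine carboxypeptidase, rose from 245, 245 and 302 CPM to 395, 395 and 389 CPM (log2 fold change 0.57, SE 0.11, adjusted p = 0.0282 by edgeR).

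Of 26 other membrane proteins and transporters, edgeR called 2 higher (7.69%) and none lower, beside 1.76% and 1.05% of all tested genes. Their log2 fold changes were positive for 19 and negative for 7, and 1 was lower at an unadjusted p under 0.05. Cd164, a sialomucin of endosomes and lysosomes, rose from 289 to 310 CPM in wild-type to 434 to 476 CPM in knockout libraries (log2 fold change 0.58, SE 0.09, adjusted p = 0.0164 by edgeR). Slc15a3, which carries histidine and small peptides out of the lysosome, had a log2 fold change of 0.67 (SE 0.11, adjusted p = 0.0164 by edgeR). Of 23 autophagy genes, 1 was called higher (4.35%), beside 1.76% of all tested genes, and the median was 0.01. The called gene was Gabarap, which couples to autophagosome membranes (log2 fold change 0.54, SE 0.11, adjusted p = 0.0364 by edgeR).

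Genes that deliver hydrolases by mannose-6-phosphate or sortilin were not called by edgeR, DESeq2 or limma-voom (0 of 12), and 1 had an unadjusted p under 0.05. In that list M6pr, a mannose-6-phosphate receptor, had a log2 fold change of 0.08 (SE 0.09), and Vps35, a retromer subunit, 0.11 (SE 0.10). Of 22 genes of the nutrient-sensing pathway that keeps TFEB in the cytosol, 0 were called by the same 3 tools and 3 had an unadjusted p under 0.05. In that list Ywhaz, a 14-3-3 protein, had a log2 fold change of 0.01 (SE 0.09), and Lamtor1, the anchor of mTORC1 on the lysosome, 0.07 (SE 0.10).

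The cathepsins and legumain, proteases of the same compartment, had 5 of 14 genes called higher (35.7%) and none lower. Over all tested genes 1.76% were called higher and 1.05% lower. The median log2 fold change of the 14 was 0.33, and 0.16 with library totals alone. Ctsd, the aspartic protease cathepsin D, rose from 3334, 3010 and 3484 CPM to 5965, 5366 and 5165 CPM (log2 fold change 0.75, SE 0.09, adjusted p = 0.00806 by edgeR). Ctsc, Ctsl and Ctss had log2 fold changes of 0.50, 0.67 and 0.53, with edgeR adjusted p-values of 0.0284, 0.0327 and 0.0364. Lgmn, named after its values were seen, had 0.50 (adjusted p = 0.0364 by edgeR). Summed, the cathepsins and legumain took 2.40% to 2.76% of counts in wild-type against 3.22% to 3.43% in knockout libraries. The sum of the 37 genes differed from this in that its ranges overlapped between the groups, with either scaling. Psap, whose replicates differed more than its groups, is a large part of that sum, which was not taken without it. By role, shares of counts were higher without overlap for the membrane proteins (0.4706% to 0.49% in wild-type, 0.5065% to 0.5238% in knockout). They were lower without overlap for the glycosidases (0.2326% to 0.2424%, then 0.197% to 0.2128%) and overlapped for the other roles. The difference between the cathepsin set and the 37 genes was not tested.

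Among 20 genes often expressed with Gpnmb in lipid-laden phagocytes, edgeR called 5 higher (25.0%) and none lower, beside 1.76% and 1.05% of all tested genes. The median log2 fold change was 0.39, and 0.22 with library totals alone. At an unadjusted p under 0.05 stood 13 in the higher direction and 2 in the lower. The DESeq2 Wald test called 7 higher and 2 lower, and limma-voom 5 and 0. The genes called by edgeR included Lgals3, a lectin recruited to damaged lysosomes, at 0.73 (SE 0.11, adjusted p = 0.0137 by edgeR), and Fth1, the ferritin heavy chain, at 0.69 (SE 0.11, adjusted p = 0.0164 by edgeR). Hmox1, heme oxygenase 1, was at 0.84 (SE 0.15, adjusted p = 0.0244 by edgeR), and Fabp5, a fatty acid carrier, at 1.16 (SE 0.23, adjusted p = 0.0291 by edgeR). The fifth, Msr1, a scavenger receptor named after its values were seen, was at 0.55 (adjusted p = 0.0364 by edgeR).

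Of the 13 called genes of these lists other than Lgmn and Msr1, Ctsd kept its call in each of the 6 fits with 1 library left out. The number that lost it was 6, 7 and 4 without wild-type replicates 1, 2 and 3, and 11, 10 and 12 without knockout replicates 1, 2 and 3. It was 5 with library totals alone, and no sign changed in these 7 fits. With 1 library left out, 1 to 4 cathepsins or legumain and 0 to 5 lipid-laden phagocyte genes were called higher, 0 to 2 of the other membrane proteins and 0 of the autophagy genes. Of the lipid-laden phagocyte genes 0 to 1 were then called lower. With library totals alone 1 cathepsin was called higher, and 4 lipid-laden phagocyte genes higher and 1 lower.

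Markers of the cell types that such a preparation can hold also differed between the groups. Over all tested genes edgeR called 1.76% higher and 1.05% lower. Of 22 conventional dendritic cell markers it called 7 lower and 1 higher. Their log2 fold changes had a median of -0.57, with 15 negative and 7 positive. Flt3, the growth factor receptor of dendritic cells, was at 34.1 to 73.3 CPM in wild-type against 10.8 to 15.5 CPM in knockout libraries. Xcr1, a receptor of the cDC1 subset, was at 21.9 to 47.7 CPM and 6.37 to 9.74 CPM. Clec9a, from the same list, overlapped between the groups, at 5.61 to 10.3 CPM and 6.24 to 7.62 CPM (log2 fold change -0.07, SE 0.28). The summed level of the 22 markers, set by Cd74 and H2-Ab1, was 4.14% to 4.92% of counts in wild-type against 4.23% to 5.16% in knockout libraries. With 1 library left out, 2 to 6 were called lower and 0 to 1 higher. Of 14 tested mature migratory dendritic cell markers 3 rose, and the highest in CPM, Tmem123 and Ccl17, had log2 fold changes of 0.14 and 0.33. That list took 0.124% to 0.133% of counts in wild-type against 0.138% to 0.162% in knockout libraries.

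Of 19 tested macrophage markers 1 was called higher by edgeR, beside 1.76% of all tested genes. At an unadjusted p under 0.05 stood 12 higher and 1 lower, beside 8.45% and 7.51% of all tested genes. The DESeq2 Wald test called 6 higher and 1 lower, and limma-voom 1 and 0. For 10 of the 19 knockout lay above wild-type without overlap, beside 11.2% of all tested genes. The median log2 fold change was 0.32, and 0.16 with library totals alone. The list took 4.63% to 5.32% of counts in wild-type against 5.06% to 6.04% in knockout libraries, ranges that overlapped. With TMM-scaled totals its sum was 44510 to 50300 CPM in wild-type against 53600 to 64390 CPM in knockout libraries, without overlap. Highest in CPM were Lyz2, with a log2 fold change of 0.03, and Spp1, with 0.45. Of 14 monocyte markers 2 were called higher and 1 lower, with a median log2 fold change of -0.22 and 8 of 14 negative. In the opposite direction, their sum was 0.703% to 0.895% of counts in wild-type against 0.912% to 1.71% in knockout libraries. It was led by Chil3, at 515 to 1850 CPM in wild-type against 3237 to 12480 CPM in knockout libraries, and Fn1, with a log2 fold change of 0.12. Knockout replicate 1 had the highest Chil3 as well as the highest Atp6v0d2. The part of these markers in the results on the lysosomal genes was not tested.

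Osteoclast markers, relevant to Atp6v0d2, were not called by the main edgeR fit (0 of 9 tested), while the DESeq2 Wald test and limma-voom called 1 each. At an unadjusted p under 0.05 stood 2 higher and 2 lower, beside 16.0% of all tested genes. Their sum was 0.0663% to 0.0888% of counts in wild-type against 0.0704% to 0.0751% in knockout libraries. Of these, Dcstamp and Acp5 were highest in CPM, with log2 fold changes of 0.43 and -0.15, and the defining gene Calcr was at 0.0562 CPM or less.

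Other lineages were scarce. Their calls stand beside 1.76% higher and 1.05% lower among all tested genes. Neutrophil markers had 1 of 5 tested called higher, at 0.00618% to 0.0114% of counts in wild-type against 0.0092% to 0.00973% in knockout libraries, with Mmp8 and Csf3r highest in CPM. T and natural killer cell markers had 1 of 17 called higher, at 0.0143% to 0.0219% and 0.0306% to 0.0312%, led by Il7r and Gzmb. B cell and plasma cell markers had 1 of 3 tested called lower, at 0.0544% to 0.0612% and 0.0453% to 0.048%, led by Xbp1 and Ighm.

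Fibroblast and endothelial markers had 1 of 9 tested called higher, at 0.00901% to 0.0121% and 0.0157% to 0.0225%, led by Flt1 and Pecam1, with Cdh5 at 0.246 CPM or less. Tumour epithelial markers had 0 of 3 tested called by edgeR, DESeq2 or limma-voom and 0 at an unadjusted p under 0.05, at 0.0388% to 0.0588% and 0.0397% to 0.0643%, led by Cdh1 and Epcam, with Krt8 at 0.0534 CPM or less. Mitochondrially encoded genes made up 0.313% to 0.455% of counts in wild-type against 0.316% to 0.358% in knockout libraries, with 0 of 10 called by the 3 tools and 1 at an unadjusted p under 0.05. Of 16 dissociation-induced genes edgeR and limma-voom called 0 and the DESeq2 Wald test 1, with 3 at an unadjusted p under 0.05.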

How the data were processed

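RNA sequencing of 6 libraries, 3 per genotype, was analysed. The deposited table holds unnormalized read counts for each Ensembl gene identifier, in whole numbers whose totals differ between libraries. The submitters' processing notes name HISAT2 (also listed as HISAT), HTSeq, DESeq2 and mm10, with no role or version. The sources used here give no strand setting or annotation release. GENCODE M21 on GRCm38 gave symbols, positions and exon lengths for 26383 of 26519 identifiers, and 136 did not match.

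Counts were filtered by filterByExpr with a minimum count of 10 and a minimum total of 15 over all libraries. The minimum count acts as a CPM cutoff, to be met in at least as many libraries as a group holds. Counts were then scaled by TMM and fitted by edgeR's quasi-likelihood F test (edgeR 4.0.16, R 4.3.3). The p-values were adjusted by Benjamini-Hochberg over all 12580 tested genes, with a threshold of 0.05. SE is the log2 fold change over the square root of F, and 95% intervals follow from it. Alternatives used DESeq2 1.42.0, limma-voom (limma 3.58.1), other scalings, filters and dispersions, thinned counts, the replicate number as a block, and each library left out. No 2 libraries of the same group agreed within sampling noise (chi-square per degree of freedom 14.9 to 34.8). Taken over all genes together, the spread between replicates was thus larger than counting error, which need not hold for each gene.

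The 37 genes and the lists were chosen with earlier results of these data known. All 37 are named, with Mavs. Of each pathway list the genes past the threshold are named, at most the 4 with the smallest p, and otherwise the 2 with the highest mean CPM. Cell type and quality lists are given by counts and sums, and cell type lists also by their 2 genes of highest CPM; any other gene is an example, chosen after its values were seen. A gene that meets this rule is not reported here.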

Additional observations from a re-analysis of the deposited data

How the results depend on the processing

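Over the whole table the number of genes called higher and lower was 222 and 132. It was 102 and 341 with library totals alone, 531 and 393 with no filter on low counts, 412 and 326 with the DESeq2 Wald test, and 22 to 181 and 9 to 96 with 1 library left out, where fewer samples were fitted. Of the 37 genes 1 was called higher and 0 lower. These became 0 and 1 (Gusb) with library totals alone, 3 (Lamp2, Npc2, Gla) and 1 (Gusb) with DESeq2, and 0 to 1 and 0 to 1 with 1 library left out. With no filter they became 8 (Lamp1, Lamp2, Cd63, Gpnmb, Npc2, Gla, Naglu, Atp6v0d2) and 1 (Gusb). With a replicate block 264 and 150 genes were called, and 3 of the 37 genes higher (Lamp2, Cd63, Atp6v0d2). The same-numbered samples had correlations of 0.0383, 0.0866 and -0.0428 in their deviations from group means. Pairs of unlike number had -0.138 to 0.122. With 3 samples per group these values cannot decide whether same-numbered samples were paired, and the labels do not say. The median log2 fold change of the 37 genes was 0.157, -0.012 with library totals alone, and 0.151 to 0.196 with 1 library left out. With library totals alone, which shifts all genes by -0.17, signs turned for Lipa (-0.072), Psap (-0.093), Smpd1 (-0.063), Hexa (-0.046), Fuca1 (-0.123), Gaa (-0.144), Grn (-0.154), Atp6v1b2 (-0.055), Atp6v1h (-0.012), Atp6ap1 (-0.031), Tfe3 (-0.020), Atp6ap2 (-0.014), Atp6v0e (-0.024), M6pr (-0.088), Vps35 (-0.062), Ywhaz (-0.157) and Lamtor1 (-0.104). With a mean of at least 5 CPM, Grn was at -0.003 and Ywhaz at -0.0053. With 1 library left out, signs turned within the ranges of Mcoln1 (-0.093 to 0.048), Psap (-0.047 to 0.228), Neu1 (-0.149 to 0.050), Gaa (-0.085 to 0.090), Grn (-0.062 to 0.080) and Ywhaz (-0.043 to 0.046). DESeq2 size factors, limma-voom, robust dispersion and thinning to the smallest total left each of the 37 genes with its sign and its side of the threshold. The cause of these changes was not tested.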
